A study of Caenorhabditis elegans with 12 samples.

Results

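The interaction of eat-2(ad465) and nhr-62(tm1818) was examined in RNA-seq libraries of Caenorhabditis elegans. It is the difference between the effect of nhr-62(tm1818) in eat-2 animals and its effect in wild-type animals, (nhr-62;eat-2 minus eat-2) minus (nhr-62 minus N2) on the log2 scale. All 12 of the 12 libraries entered it, 3 for each of the genotypes nhr-62(tm1818);eat-2(ad465), eat-2(ad465), nhr-62(tm1818) and N2, and 15344 of the 45836 genes listed had enough counts to be tested. The animals were grown at 20 °C on plates of OP50 bacteria and were picked by hand as whole day 0 adults that did not yet carry embryos. The labels give 3 replicates of each genotype, which the study calls biological replicates. The question of the experiment was which transcripts that respond to reduced feeding depend on nhr-62.

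nhr-62 encodes a nuclear hormone receptor, one of a large family of transcription factors in the worm, many of which bind small lipid-like molecules. eat-2 encodes a subunit of an acetylcholine receptor of the pharynx, and its mutants pump and feed slowly, which makes them a genetic model of dietary restriction with a long life span. In such a design a gene can pass an interaction test in several ways. It may need nhr-62 for its level in eat-2 animals only, it may need nhr-62 in wild-type animals only, or it may respond in opposite directions. The level in each genotype tells these cases apart, and so the genes are ordered here by the genotype that stood apart. The alleles limit the model. According to the study tm1818 removes part of the gene including the DNA-binding domain, and a shorter predicted transcript may be left intact, so that the allele need not be null. In whole animals, fewer cells of a type and less RNA per cell cannot be told apart.

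Total counts per library were 18260311 to 44753083. Counts of intestinal, muscle, neuronal, sperm and oocyte markers were present in all 12 libraries (elt-2, 193 to 436 raw counts, gsp-3, 332 to 1224), and early embryonic genes had low counts, at 12 to 143 for pes-10, 3 to 24 for end-3, 1 to 23 for tbx-37 and 0 to 12 for end-1, with none for med-1. An embryo score, the mean log2 level of embryonic genes relative to all libraries, was -0.42 to 0.19 in the double mutant, -0.48 to -0.43 in eat-2, 0.28 to 0.51 in nhr-62 and -0.54 to 0.96 in N2, and its part in the results was not tested. A sperm score, the mean log2 level of the sperm genes relative to all libraries, was -0.10 to 0.26 in the double mutant, 0.56 to 0.77 in eat-2, -0.49 to -0.45 in nhr-62 and -0.84 to 0.27 in N2. The 15 pharyngeal markers took 0.108% to 0.125% of the counts in the double mutant, 0.148% to 0.178% in eat-2, 0.0537% to 0.072% in nhr-62 and 0.0575% to 0.0779% in N2. The mutated genes give only a weak check of the labels. nhr-62 had 90.7, 92 and 124 normalized counts in the double mutant, 139.9, 169 and 134 in eat-2, 129, 142 and 131 in nhr-62 and 189.7, 155 and 124 in N2 (interaction -0.30, adjusted p = 0.603, edgeR), so part of its transcript was still counted in nhr-62(tm1818) animals. eat-2 had at most 20 raw counts in any library. They were 3, 0 and 5 in the double mutant, 6, 1 and 3 in eat-2, 12, 17 and 11 in nhr-62 and 14, 20 and 7 in N2. The raw counts were thus lower in both genotypes with eat-2(ad465), on few reads. The interaction value of eat-2 was 0.05 (standard error 1.41). A normalized count is a count of reads scaled to the mean library size.

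The effect of the nhr-62 mutation differed between eat-2 and wild-type animals in 40 of 15344 genes (0.261%), of which 19 had a positive interaction (0.124%) and 21 a negative one (0.137%). A gene was called at a Benjamini-Hochberg adjusted p under 0.05 in edgeR's quasi-likelihood test, with a change over 1.5-fold and a mean normalized count over 10, and all 40 also passed on the adjusted p alone. The interaction was also at an unadjusted p under 0.05 in 2193 genes (14.3%), and 87 genes had an adjusted p under 0.10. The size of the interaction in the 40 genes had a median of 1.42 on the log2 scale and ran from 0.61 for smo-1 to 5.75 for T25B2.1, a fitted value on few counts. Across all genes tested the interaction had a median of -0.03, 95% of the values lay between -1.16 and 0.82, and 46.2% were above 0. The median standard error of an interaction was 0.23, against 0.16 for nhr-62;eat-2 against eat-2 and 0.16 for nhr-62 against N2. The smallest adjusted p was 0.0012, the largest among the 40 genes was 0.0483, and the nearest gene outside had 0.0516. Which genes passed rested on single libraries. Leaving out each library in turn gave 13 to 45 genes, with 13 without N2 replicate 3, 14 without nhr-62 replicate 2, 14 without nhr-62 replicate 3, 18 without nhr-62;eat-2 replicate 2, 21 without replicate 2 or replicate 3 of eat-2 or replicate 2 of N2, and 22 without nhr-62 replicate 1. In all 12 of these fits the 40 genes kept their direction and an unadjusted p under 0.05. The fits reuse the libraries by which the genes were chosen, so this is no further evidence for them. Of the 40 genes, 13 were called every time. These were acp-2, asp-8, asp-12, cyp-29A3, dbd-3, dyf-3, F42A9.6, fbxa-192, fbxa-193, nspg-10, tiar-2, ugt-33 and unc-82. With the sperm score as a covariate 43 genes were called, 33 of the 40 among them. Scaled by total counts in place of TMM, 48 genes were called, 14 positive and 34 negative.

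As fitted here, the interaction lay mostly in the eat-2 background. Of the 40 genes, 31 passed the test for nhr-62 in eat-2 animals alone, 5 in wild-type animals alone, 2 in both and 2 in neither. This split rests on 835 genes called in nhr-62;eat-2 against eat-2. That count was 30 with the sperm score as a covariate and 28 when edgeR tested against a 1.5-fold change. It was 110 without nhr-62;eat-2 replicate 2, and the split was not made anew in these fits. The sperm score did not overlap between nhr-62;eat-2 (-0.10 to 0.26) and eat-2 (0.56 to 0.77). The fit with that covariate therefore cannot fully separate the score from the genotype. In nhr-62;eat-2 against eat-2, 12 of the 19 genes with a positive interaction were higher (0.782% of all genes tested) and 1 was lower, with a median log2 fold-change of 0.89. All but 1 of the 21 genes with a negative interaction, 20, were lower there (4.66% of all genes tested), with a median of -1.32. In nhr-62 against N2, 6 of the 19 were lower (0.0912% of all genes tested), with a median of -0.37, and 1 of the 21 was higher (0.013% of all genes tested), with a median of 0.07. Read the other way round, eat-2 against N2 had 9 of the 19 lower (3.61% of all genes tested) and 17 of the 21 higher (23.9% of all genes tested). In nhr-62;eat-2 against nhr-62, 8 of the 19 were higher (9.46% of all genes tested) and 2 lower, and 5 of the 21 were higher and 4 lower (1.41% of all genes tested). These comparisons share their libraries with the interaction, so they describe its parts and are no further evidence for it.

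**Figure D1:**
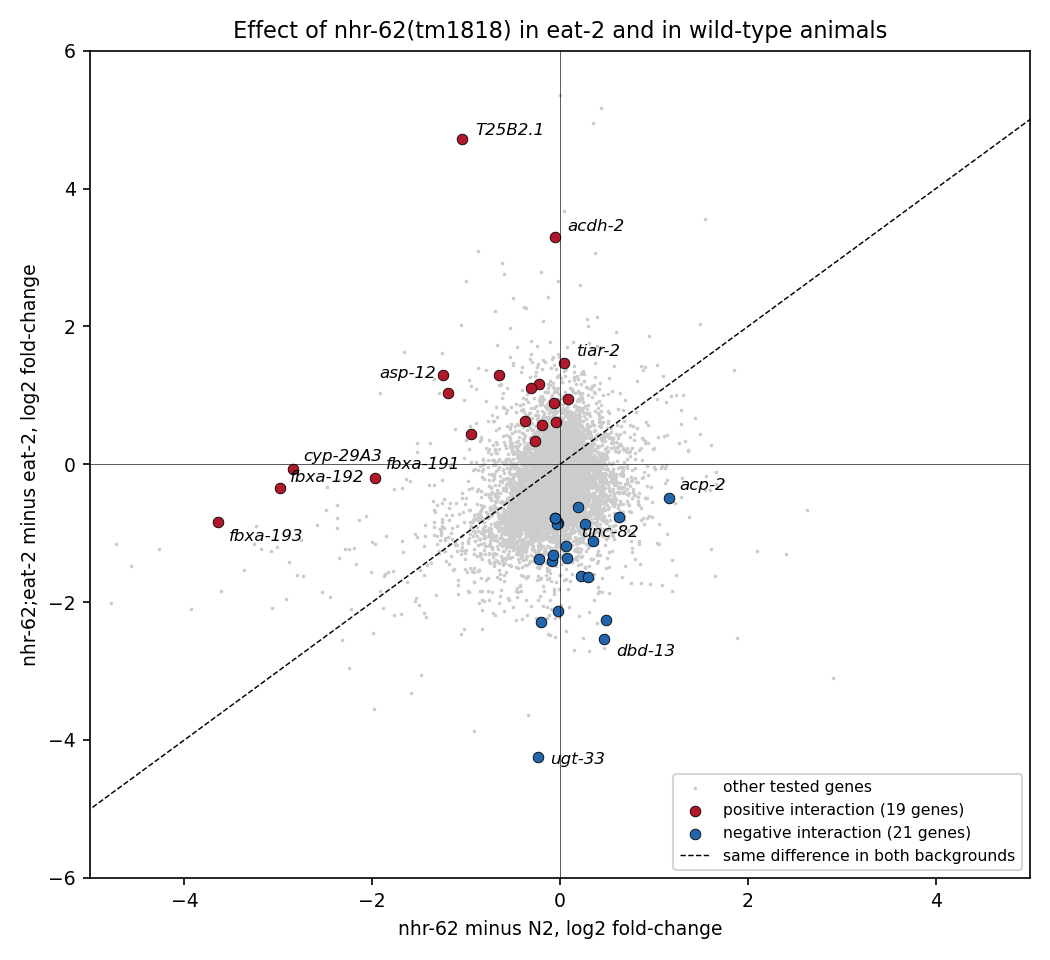
Log2 fold-change of each tested gene in nhr-62;eat-2 against eat-2 (vertical axis) and in nhr-62 against N2 (horizontal axis), with the 40 interaction genes coloured and 3 of 15344 genes beyond the axes. The negative interaction genes lie below 0 on the vertical axis and most lie near 0 on the horizontal one, while fbxa-192, fbxa-193, fbxa-191 and cyp-29A3 lie far to the left with small vertical values.

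Each of the 40 genes had at least 1 genotype whose 3 libraries lay all above or all below the other 9, and 18 of them had 2, a description made after the values were seen. Across all genes tested 35.1% had such a genotype, most often eat-2. The genes were grouped by the genotype with the widest gap to the other libraries. In 17 of the 21 negative genes eat-2 lay above (17.6% of all genes tested), and in 8 of the 19 positive genes it lay below (11.4% of all genes tested). The double mutant lay above in 4 positive genes (0.873% of all genes tested) and below in 3 negative ones (1.02% of all genes tested). The N2 libraries lay above in 4 positive genes (0.841% of all genes tested) and below in 1 negative gene (0.821% of all genes tested), and the nhr-62 libraries lay below in 3 positive genes (1.16% of all genes tested).

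**Figure D2:**
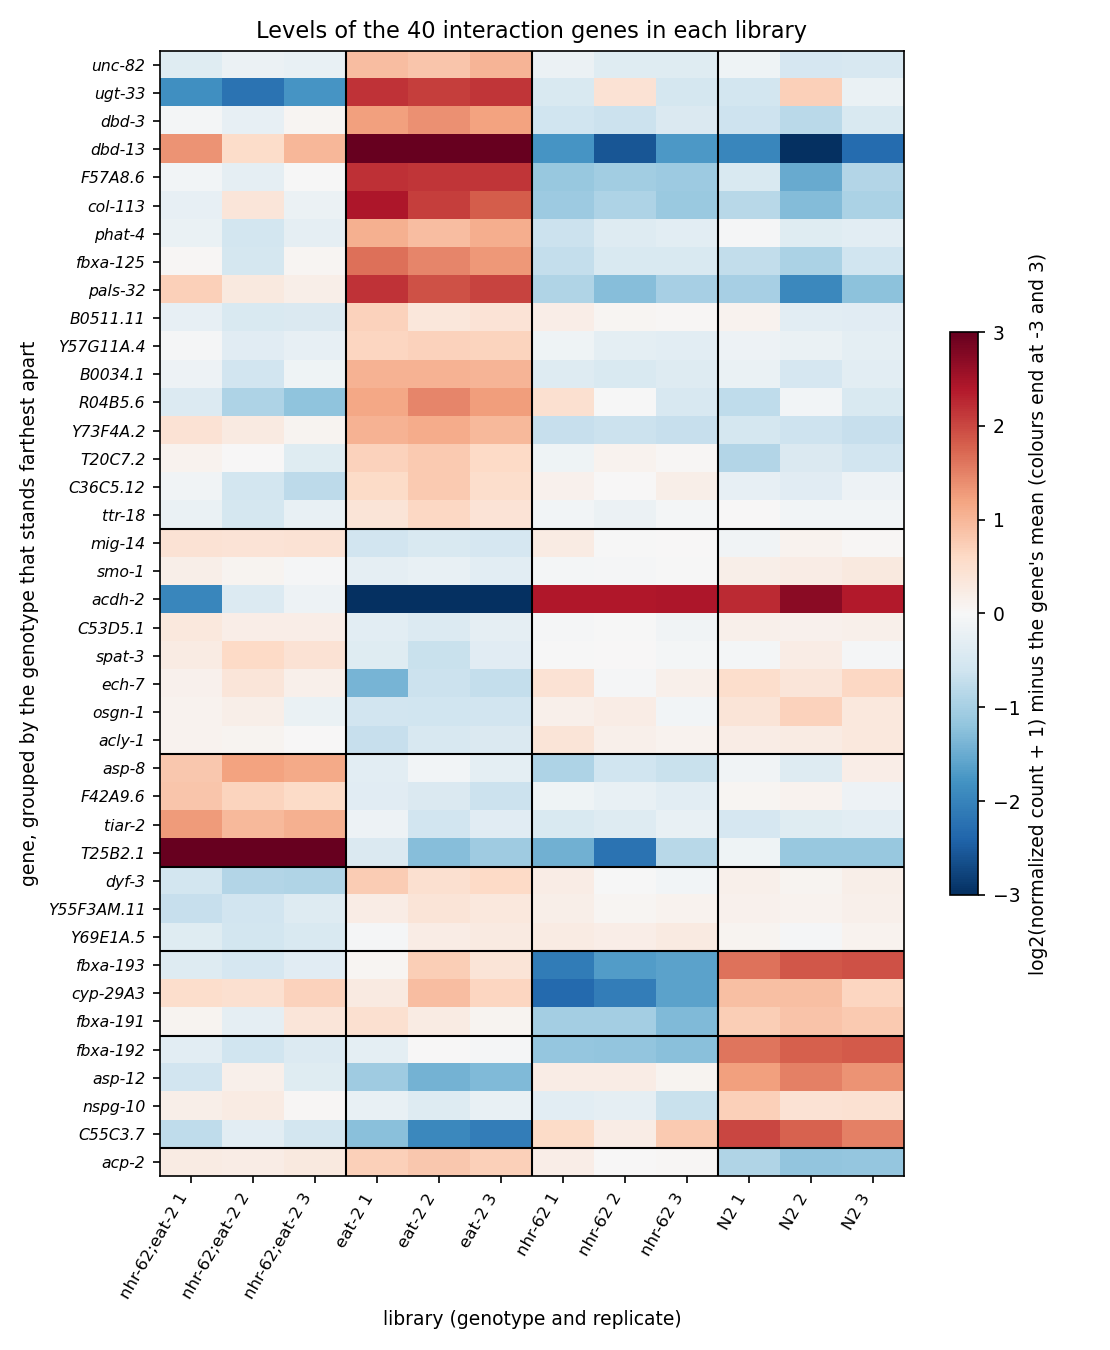
Level of each of the 40 interaction genes (rows) in each of the 12 libraries (columns, by genotype), as log2 of the normalized count plus 1 minus the mean of the gene, with colours ending at -3 and 3 and lines between groups of genes. In the uppermost 17 genes the eat-2 columns are the reddest of their row, and near the foot the nhr-62 columns are the bluest for fbxa-193, cyp-29A3 and fbxa-191.

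In the first group eat-2 stood highest. All but 1 of its 17 genes, 16, were called higher in eat-2 against N2 (23.9% of all genes tested). The group was chosen by these same levels, so the count is a description. By the interaction, the difference that came with the eat-2 mutation was smaller, absent or turned round without nhr-62. The muscle kinase gene unc-82, needed for the order of thick filaments in body wall muscle, had 922, 1059.5 and 1016 normalized counts in the double mutant, 2272, 2111 and 2425 in eat-2, 1062, 928 and 931 in nhr-62 and 1091, 841 and 856 in N2. The 3 eat-2 libraries lay apart, and the ranges of the other genotypes overlapped. Its log2 fold-change was -1.18 in nhr-62;eat-2 against eat-2 and 0.07 in nhr-62 against N2, an interaction of -1.25 (standard error 0.15, adjusted p = 0.00353, edgeR). The pharyngeal gland gene phat-4, of the family named for its likeness to toxins, showed the same form, with 379.9, 298 and 359 in the double mutant, 919, 828 and 926 in eat-2, 277, 333 and 348 in nhr-62 and 424, 339 and 352 in N2 (interaction -1.15, standard error 0.18, adjusted p = 0.0217). It was called in 6 of the 12 fits that left out a library, and was lost without nhr-62;eat-2 replicate 2, eat-2 replicate 3, and replicates 2 and 3 of nhr-62 and of N2. Gene models overlap unc-82 on either strand, and no source used here says whether strand was used in counting, so its counts may hold reads of a neighbour.

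In other members of this group the level in the double mutant stayed above that in nhr-62 animals, so that part of the eat-2 response was kept. F57A8.6, which the study names, had 76.6, 67.1 and 79.8 normalized counts in the double mutant, 374, 359.7 and 358 in eat-2, 36.3, 38.3 and 37.3 in nhr-62 and 58, 27.4 and 43.7 in N2. No library of the double mutant overlapped any other genotype. The interaction was -2.08 (standard error 0.30, adjusted p = 0.0131), and F57A8.6 was higher in nhr-62;eat-2 than in nhr-62 by 1.0 on the log2 scale (adjusted p = 0.00985), against 3.08 for eat-2 over N2 (adjusted p = 6.63e-06). dbd-13, named in the study as C42D4.3, had the largest eat-2 response in the group, with 175, 101 and 138 normalized counts in the double mutant, 913, 792 and 673 in eat-2, 19.5, 10.8 and 20.2 in nhr-62 and 16.9, 7.4 and 13.1 in N2. Its interaction was -3.0 (standard error 0.43, adjusted p = 0.0131), and the call was lost without nhr-62 replicate 1, nhr-62 replicate 3 or N2 replicate 3 (highest adjusted p 0.0702 over the fits that left out a library). For F57A8.6 it was lost without nhr-62;eat-2 replicate 2, nhr-62 replicate 2, nhr-62 replicate 3 or N2 replicate 3 (highest adjusted p 0.0644).

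dbd-3 had 145, 128 and 158 normalized counts in the double mutant, 359, 393 and 355 in eat-2, 100.5, 97.2 and 112 in nhr-62 and 99.1, 86.3 and 110.2 in N2 (interaction -1.43, standard error 0.19, adjusted p = 0.00862), and was called whichever library was left out. The cuticle collagen gene col-113 averaged 66.8 ± 16.2 normalized counts in the double mutant, 294 ± 63.5 in eat-2, 31.8 ± 2.24 in nhr-62 and 32.3 ± 5.44 in N2 (SD, n = 3 each), with an interaction of -2.10 (adjusted p = 0.0205, edgeR). pals-32, of a family whose other members are known in the response to intracellular pathogens, averaged 177 ± 36.6 in the double mutant, 547 ± 50.4 in eat-2, 63.3 ± 8.25 in nhr-62 and 51.6 ± 16.2 in N2 (interaction -1.94, adjusted p = 0.0231, edgeR). Both genes were also called higher in nhr-62;eat-2 against nhr-62, by 1.08 and 1.47 on the log2 scale. They were less stable than dbd-3, with 6 and 4 of the 12 fits, and each overlaps a gene on the opposite strand.

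ugt-33 and ttr-18 also stood highest in eat-2, but in the double mutant they lay under every other library, ttr-18 only just. The UDP-glycosyltransferase gene ugt-33, of a family that attaches sugars to small molecules in detoxification, had 6.3, 4.6 and 6.7 normalized counts in the double mutant, 116, 109 and 115 in eat-2, 18.1, 34.4 and 17.1 in nhr-62 and 16.9, 42.1 and 21.8 in N2, and the nhr-62 and N2 ranges overlapped. The log2 fold-change was 2.06 in eat-2 against N2 (adjusted p = 0.00065) and -1.95 in nhr-62;eat-2 against nhr-62 (adjusted p = 0.0111), so the effect of the eat-2 mutation had opposite signs with and without nhr-62. The interaction was -4.02 (standard error 0.54, adjusted p = 0.00862, edgeR), was called in all 12 fits that left out a library, and rested on 4, 5 and 7 raw counts in the double mutant. The transthyretin-related gene ttr-18 had a small interaction of -0.72 (adjusted p = 0.0457) at 1366, 1087 and 1329.5 in the double mutant, 2037, 2388 and 2065 in eat-2, 1477, 1366 and 1484 in nhr-62 and 1574, 1472 and 1465 in N2. It was called in 2 of those 12 fits.

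The remaining 8 genes of the first group had interactions between -2.75 for R04B5.6 and -0.73 for Y73F4A.2. The F-box A gene fbxa-125 had 53.1, 35.9 and 53.9 normalized counts in the double mutant, 164, 144 and 129.8 in eat-2, 31.4, 37.3 and 37.3 in nhr-62 and 30.6, 26.3 and 33.8 in N2 (interaction -1.85, adjusted p = 0.0231, edgeR). R04B5.6 was the least abundant, at 12.5, 8.3 and 6.7 in the double mutant, 38.9, 48.1 and 41.2 in eat-2, 23.7, 16.7 and 11.7 in nhr-62 and 9.5, 15.8 and 12 in N2. The interactions of the other genes were -1.39 for T20C7.2, -1.46 for C36C5.12, -1.24 for B0034.1, -1.14 for B0511.11 and -0.83 for Y57G11A.4, with adjusted p between 0.0245 and 0.0427. Y73F4A.2 kept much of its eat-2 response in the double mutant, where its log2 fold-change against nhr-62 was 0.94 (adjusted p = 0.000105), against 1.67 for eat-2 over N2 (adjusted p = 1.53e-06). All 8 had an adjusted p over 0.05 in at least 6 of the 12 fits that left out a library, and gene models overlap B0511.11 and B0034.1. The eat-2 libraries, in which these genes were highest, were also those with the highest sperm score and pharyngeal marker share. The part of the pharyngeal marker share in these results was not tested. With the sperm score as a covariate Y73F4A.2, C36C5.12 and ttr-18 lost their call, and the other 14 of the 17 genes kept theirs.

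In the second group eat-2 stood lowest. Its 8 genes include acdh-2, ech-7 and acly-1, named here after their values were seen. Beta-oxidation shortens fatty acids by repeated rounds of dehydrogenation, hydration, oxidation and thiolysis. acdh-2 encodes an acyl-CoA dehydrogenase, the enzyme type of the first step, and had 134, 391 and 468 normalized counts in the double mutant, 17, 42.5 and 42.4 in eat-2, 2744, 2738 and 2783 in nhr-62 and 2478, 3392 and 2733 in N2. The double mutant lay above eat-2 without overlap and stayed far under nhr-62 and N2. The log2 fold-change was 3.29 in nhr-62;eat-2 against eat-2 (adjusted p = 0.00223) and -0.06 in nhr-62 against N2, and the interaction was 3.35 (standard error 0.51, adjusted p = 0.0205, edgeR). ech-7 encodes an enoyl-CoA hydratase, the enzyme type of the next step, and had 1624, 1899 and 1633 in the double mutant, 556, 948 and 895 in eat-2, 1989, 1449 and 1647 in nhr-62 and 2135, 1911 and 2277 in N2. Only the eat-2 libraries stood apart from all others (interaction 1.42, standard error 0.24, adjusted p = 0.035). The nhr-62 range overlapped those of the double mutant and N2, and every double-mutant library lay below every N2 library. acly-1, an ATP citrate lyase gene whose enzyme makes the cytosolic acetyl-CoA used for fatty acid synthesis, had 5975, 5907 and 5623 in the double mutant, 3446, 3968 and 4075 in eat-2, 7223, 6115 and 5969 in nhr-62 and 6462, 6526 and 6875 in N2 (interaction 0.65, standard error 0.12, adjusted p = 0.0483).

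These 3 calls were among the less stable. acdh-2 was called in 5, ech-7 in 3 and acly-1 in 1 of the 12 fits that left out a library, with adjusted p up to 0.0756, 0.147 and 0.193. The acdh-2 call was lost without nhr-62;eat-2 replicate 2, eat-2 replicate 2 or 3, any nhr-62 replicate or N2 replicate 3. Their interaction values ran from 3.02 to 3.67 for acdh-2, 1.21 to 1.56 for ech-7 and 0.58 to 0.74 for acly-1, so the size moved little. acdh-2 overlaps the insulin-like gene ins-13 on the same strand, so reads of the overlap cannot be assigned to one of them. Across the 64 fatty acid oxidation genes tested, these 2 (acdh-2 and ech-7) were the only ones called (3.12%, beside 0.261% of all genes tested). In this list 31 values were positive and 33 negative, and 9 had an unadjusted p under 0.05 (14.1%, beside 14.3% of all genes tested). The median was -0.0026, beside -0.03 over all genes.

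mig-14 encodes the worm Wntless protein, which carries Wnt ligands to the surface of the cells that secrete them. It had 1207, 1190.1 and 1206 normalized counts in the double mutant, 598, 651 and 626 in eat-2, 1067, 879 and 903 in nhr-62 and 829, 954 and 911 in N2. Here eat-2 lay under all other libraries and the double mutant above them (interaction 0.86, standard error 0.12, adjusted p = 0.0123, edgeR). spat-3, a RING domain gene, averaged 4514 ± 542 in the double mutant, 2440 ± 289 in eat-2, 3295 ± 99.6 in nhr-62 and 3454 ± 402 in N2 (interaction 0.96, adjusted p = 0.0245). C53D5.1 averaged 452 ± 20 in the double mutant, 304 ± 13.7 in eat-2, 372 ± 13.5 in nhr-62 and 423 ± 4.86 in N2 (interaction 0.76, adjusted p = 0.0217). In both of these the eat-2 libraries were the lowest and the double mutant the highest. osgn-1, a homolog of the mammalian oxidative stress induced growth inhibitors, averaged 727 ± 101 in the double mutant, 472 ± 4.16 in eat-2, 763 ± 77.5 in nhr-62 and 986 ± 144 in N2 (interaction 0.99). smo-1, the SUMO gene, had the smallest interaction and the smallest standard error of the 40 genes, 0.61 (standard error 0.09, adjusted p = 0.0173), and passed neither test for nhr-62 alone. In nhr-62;eat-2 against eat-2 the log2 fold-change was 0.34 for smo-1 and 0.57 for C53D5.1. Their adjusted p there was 0.0143 and 0.00557 (edgeR), and both changes were under the 1.5-fold threshold. Leaving out each library in turn, mig-14 was called 9 times of 12 and lost without nhr-62 replicate 2, nhr-62 replicate 3 or N2 replicate 3, smo-1 was called 5 times, spat-3 4 times, C53D5.1 3 times and osgn-1 once. acly-1, ech-7 and osgn-1 were the genes of the second group that lost their call with the sperm score as a covariate.

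**Figure D3:**
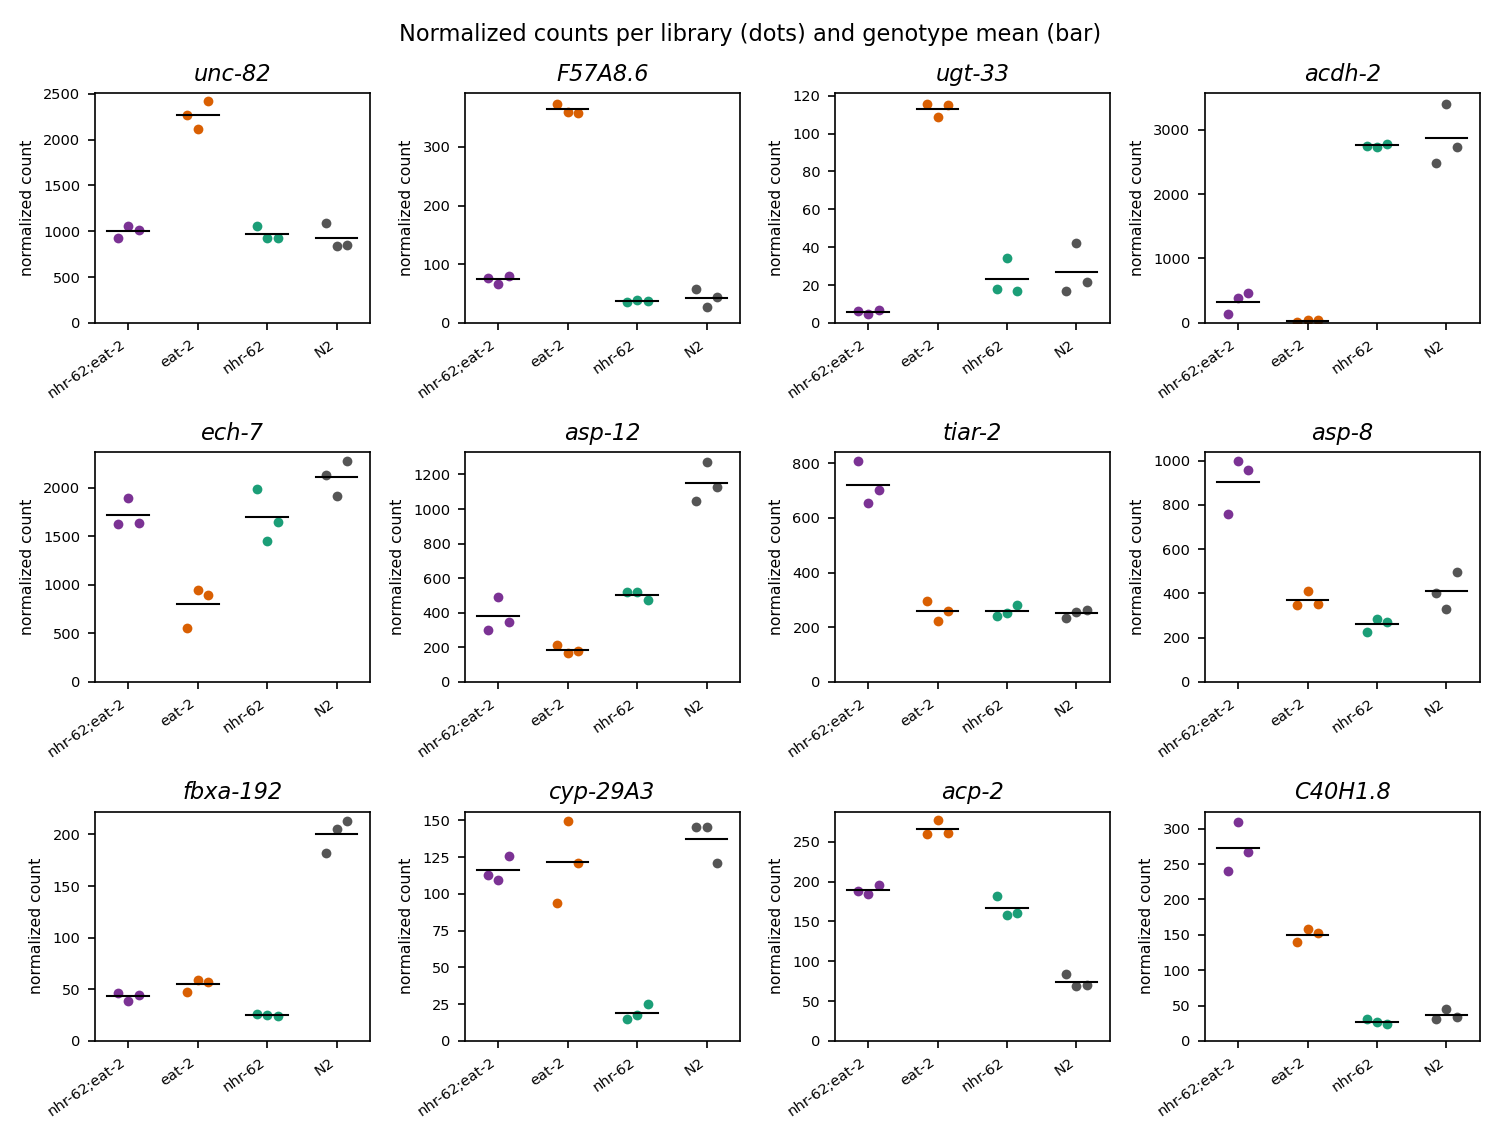
Normalized counts (vertical axes from 0) of 11 interaction genes and of C40H1.8 in each library (dots) and their genotype means (bars), with the genotypes nhr-62;eat-2, eat-2, nhr-62 and N2 in order on each horizontal axis. unc-82, F57A8.6 and acp-2 are highest in eat-2, acdh-2, ech-7 and asp-12 lowest there, tiar-2 and asp-8 highest in the double mutant, and fbxa-192 and cyp-29A3 lowest in nhr-62.

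In the third group the double mutant stood highest. Of its 4 genes, tiar-2, asp-8 and F42A9.6 were not called higher in eat-2 or in nhr-62 against N2. Of all genes tested, 23.9% and 0.013% were, and at 0.013% no call among so few genes says little. T25B2.1 could not be called there, as its mean normalized counts lay under the threshold for a call. They were 1.54 in eat-2, 0.75 in nhr-62 and 1.77 in N2. These same levels chose the group, so the absence of calls is a description. The clearest was tiar-2, which encodes an RNA-binding protein of the TIA-1 type, with 809.7, 655 and 700.4 normalized counts in the double mutant, 296, 223 and 261 in eat-2, 243, 252 and 283 in nhr-62 and 233, 257 and 264 in N2. The other 9 libraries overlapped between 223 and 296. The log2 fold-change was 1.47 in nhr-62;eat-2 against eat-2, 0.04 in nhr-62 against N2 and 0.05 in eat-2 against N2 (adjusted p = 0.777), with an interaction of 1.43 (standard error 0.18, adjusted p = 0.00509, edgeR). The aspartyl protease gene asp-8 had 759.7, 999 and 956 in the double mutant, 347, 409.7 and 352 in eat-2, 228, 286 and 272 in nhr-62 and 402, 332 and 498 in N2 (interaction 1.94, standard error 0.22, adjusted p = 0.00285). Its N2 and eat-2 libraries overlapped, and the nhr-62 libraries lay under both. F42A9.6, which overlaps a gene on the opposite strand, had 671, 593 and 553 in the double mutant, 293, 276 and 239.7 in eat-2, 344, 317 and 299 in nhr-62 and 387, 402 and 337 in N2 (interaction 1.39, standard error 0.16, adjusted p = 0.0033). All 3 genes were called whichever library was left out. T25B2.1 was nearly silent outside the double mutant, with 30, 40 and 46 raw counts there, 2, 1 and 1 in eat-2, 1, 0 and 2 in nhr-62 and 3, 1 and 1 in N2. The fitted interaction of 5.75 (standard error 1.01, adjusted p = 0.0399) depends on the prior count that edgeR adds to such low counts and is not a measured fold.

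In the fourth group the double mutant stood lowest. dyf-3, a gene of intraflagellar transport in sensory cilia, had 244, 194 and 189.5 normalized counts in the double mutant, 604, 498 and 546 in eat-2, 415, 355 and 337 in nhr-62 and 397, 379 and 403 in N2. The nhr-62 and N2 libraries overlapped, the double mutant lay under them and eat-2 above them. Its log2 fold-change was -1.40 in nhr-62;eat-2 against eat-2 and -0.09 in nhr-62 against N2, an interaction of -1.31 (standard error 0.18, adjusted p = 0.00862, edgeR) that was called in all 12 fits that left out a library. Y55F3AM.11 had 286, 311 and 357 in the double mutant, 539, 604 and 579 in eat-2, 529, 486 and 498 in nhr-62 and 511, 501 and 521 in N2 (interaction -0.83, adjusted p = 0.0243). Y69E1A.5 had 459.6, 402 and 429 in the double mutant, 579, 693 and 715 in eat-2, 695, 682 and 716 in nhr-62 and 628, 575 and 631 in N2 (interaction -0.82, adjusted p = 0.0245). In all 3 genes the eat-2 mutation alone came with no called difference from N2. For dyf-3 the log2 fold-change in eat-2 against N2 was 0.48 (adjusted p = 0.0067, edgeR), under the 1.5-fold threshold. In the absence of nhr-62 the eat-2 mutation came with a lower level in all 3 (log2 fold-change in nhr-62;eat-2 against nhr-62 -0.83, -0.66 and -0.70).

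The last 8 genes were those in which N2 or nhr-62 stood farthest apart. Of these, 7 were called in nhr-62 against N2 (0.104% of all genes tested). The group was chosen by these same levels, so the count is a description. The aspartyl protease gene asp-12 was called in opposite directions in both backgrounds. It had 299, 493 and 345 normalized counts in the double mutant, 213, 167 and 177 in eat-2, 520, 521 and 472 in nhr-62 and 1046, 1272 and 1129 in N2. Without nhr-62 its level was higher in eat-2 animals (log2 fold-change 1.04, adjusted p = 0.00813) and lower in wild-type animals (-1.19, adjusted p = 0.00882), with an interaction of 2.23 (standard error 0.23, adjusted p = 0.00217, edgeR). Its log2 fold-change was -0.40 in nhr-62;eat-2 against nhr-62 (adjusted p = 0.0924), which was not called, and -2.63 in eat-2 against N2 (adjusted p = 4.41e-06). C55C3.7 resembled it, at 14.1, 19.3 and 16.4 in the double mutant, 9.7, 5.7 and 5 in eat-2, 37, 28.5 and 42.8 in nhr-62 and 101, 85.3 and 72 in N2 (interaction 2.55, adjusted p = 0.0231), though its difference in nhr-62 against N2 of -1.25 did not pass (adjusted p = 0.115). asp-12 was called in all 12 fits that left out a library and C55C3.7 in 3.

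In acp-2, an acid phosphatase gene, N2 stood lowest, and the level was higher in nhr-62 than in N2. All mutant genotypes lay above N2, and other differences between the strains were not tested. Its normalized counts were 188, 184 and 195 in the double mutant, 259, 278 and 261 in eat-2, 182, 158 and 161 in nhr-62 and 84.3, 69.5 and 69.9 in N2. Every nhr-62 library lay above every N2 library, and every double-mutant library lay below every eat-2 library. The log2 fold-change in nhr-62 against N2 was 1.16 (adjusted p = 0.00183), that in nhr-62;eat-2 against eat-2 was -0.49 (adjusted p = 0.0298, under the 1.5-fold threshold), and the interaction was -1.66 (standard error 0.17, adjusted p = 0.00217, edgeR). acp-2 was called in all 12 fits that left out a library, at adjusted p of 0.00348 to 0.0132.

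Besides asp-8, the nhr-62 libraries lay below the other 9 in 4 genes, and 3 of these, fbxa-191, fbxa-192 and fbxa-193, belong to the F-box A family and lie on chromosome V. F-box proteins choose substrates for ubiquitin ligases, and this family is much expanded in the worm. fbxa-192 had 46.9, 38.6 and 44.3 normalized counts in the double mutant, 47.5, 59.5 and 57.4 in eat-2, 25.8, 25.5 and 24.1 in nhr-62 and 182, 205 and 213 in N2. N2 lay far above the rest, and the double mutant lay just under eat-2. The log2 fold-change was -2.99 in nhr-62 against N2 (adjusted p = 5.17e-06) and -0.35 in nhr-62;eat-2 against eat-2 (adjusted p = 0.162), and its interaction of 2.64 (standard error 0.23, adjusted p = 0.0012, edgeR) had the smallest p of all genes. fbxa-193 had 59.4, 54.3 and 61.6 in the double mutant, 80.3, 129 and 102 in eat-2, 17.5, 23.6 and 24.9 in nhr-62 and 244, 285 and 294 in N2 (interaction 2.80, standard error 0.29, adjusted p = 0.00217), and was also lower in nhr-62;eat-2 against eat-2 (-0.84, adjusted p = 0.0268). fbxa-191 was at 39.1, 30.3 and 47.1 in the double mutant, 51.1, 43.4 and 38.7 in eat-2, 17.5, 17.7 and 14 in nhr-62 and 62.2, 67.4 and 63.3 in N2 (interaction 1.77, adjusted p = 0.037), and was called in 2 of the 12 fits that left out a library. The annotation lists fbxa-191 and fbxa-193 as pseudogenes, and near-identical copies can share reads when 1 alignment per read is kept, so the split of counts among the 3 genes is uncertain. Over the 145 F-box A genes tested 3 were called positive and 1 negative (fbxa-125), beside 0.124% and 0.137% of all genes tested, and 24.1% had a positive value, beside 46.2%.

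cyp-29A3, a cytochrome P450 gene, had 113, 109 and 126 normalized counts in the double mutant, 93.7, 149 and 121 in eat-2, 14.7, 17.7 and 24.9 in nhr-62 and 145, 145 and 121 in N2. The double mutant, eat-2 and N2 overlapped, and nhr-62 alone was low, so the eat-2 mutation came with a higher level in the absence of nhr-62 (log2 fold-change 2.60, adjusted p = 7.55e-05) and with no detectable difference in its presence (-0.17, adjusted p = 0.482). The interaction was 2.77 (standard error 0.31, adjusted p = 0.00285, edgeR). It was the only one of 61 cytochrome P450 genes tested that was called (1.64%, beside 0.261% of all genes tested). nspg-10, of a nematode-specific peptide family, was highest in N2, with 4308, 4487 and 3853 in the double mutant, 3243, 2883 and 3231 in eat-2, 3046, 3149 and 2382 in nhr-62 and 6241, 5136 and 5220.5 in N2 (interaction 1.39, standard error 0.16, adjusted p = 0.00285). Both single mutants were lower than N2 (log2 fold-change -0.95 for nhr-62 and -0.83 for eat-2), and the double mutant lay between them and N2. In nhr-62;eat-2 against eat-2 the log2 fold-change of nspg-10 was 0.43 (adjusted p = 0.0347, edgeR), under the 1.5-fold threshold. nspg-10 overlaps the collagen gene col-110 on the opposite strand. cyp-29A3 and nspg-10 were called in all 12 fits that left out a library.

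The genes that the study names for its RNA-seq or measured by qPCR were examined as a list of 43, all of which were tested. The list was drawn in part from the study's results on these same libraries and is not independent evidence. By the interaction test 2 were called positive (acdh-2 and ech-7) and 2 negative (F57A8.6 and dbd-13). The share called was 9.3%, beside 0.261% of all genes tested. An unadjusted p under 0.05 was found for 28 of the 43 (65.1%, beside 14.3% of all genes tested). In nhr-62;eat-2 against eat-2, 14 were higher and 18 lower (beside 0.782% and 4.66% of all genes tested), and in nhr-62 against N2 their median log2 fold-change was -0.058. For most of these genes the difference between the backgrounds was therefore not shown at the threshold, although their interaction values ran from -4.40 for grl-21 to 3.97 for clec-70. The hedgehog-related gene grl-21 had a standard error of 1.37 (adjusted p = 0.202) and the C-type lectin gene clec-70 one of 0.83 (adjusted p = 0.0872). clec-70 had 40.6, 223 and 220.3 normalized counts in the double mutant, 9.7, 18.9 and 28.7 in eat-2, 46.1, 119.8 and 138 in nhr-62 and 172, 139 and 242 in N2, and replicate 1 was the lowest library in every mutant genotype.

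**Figure D4:**
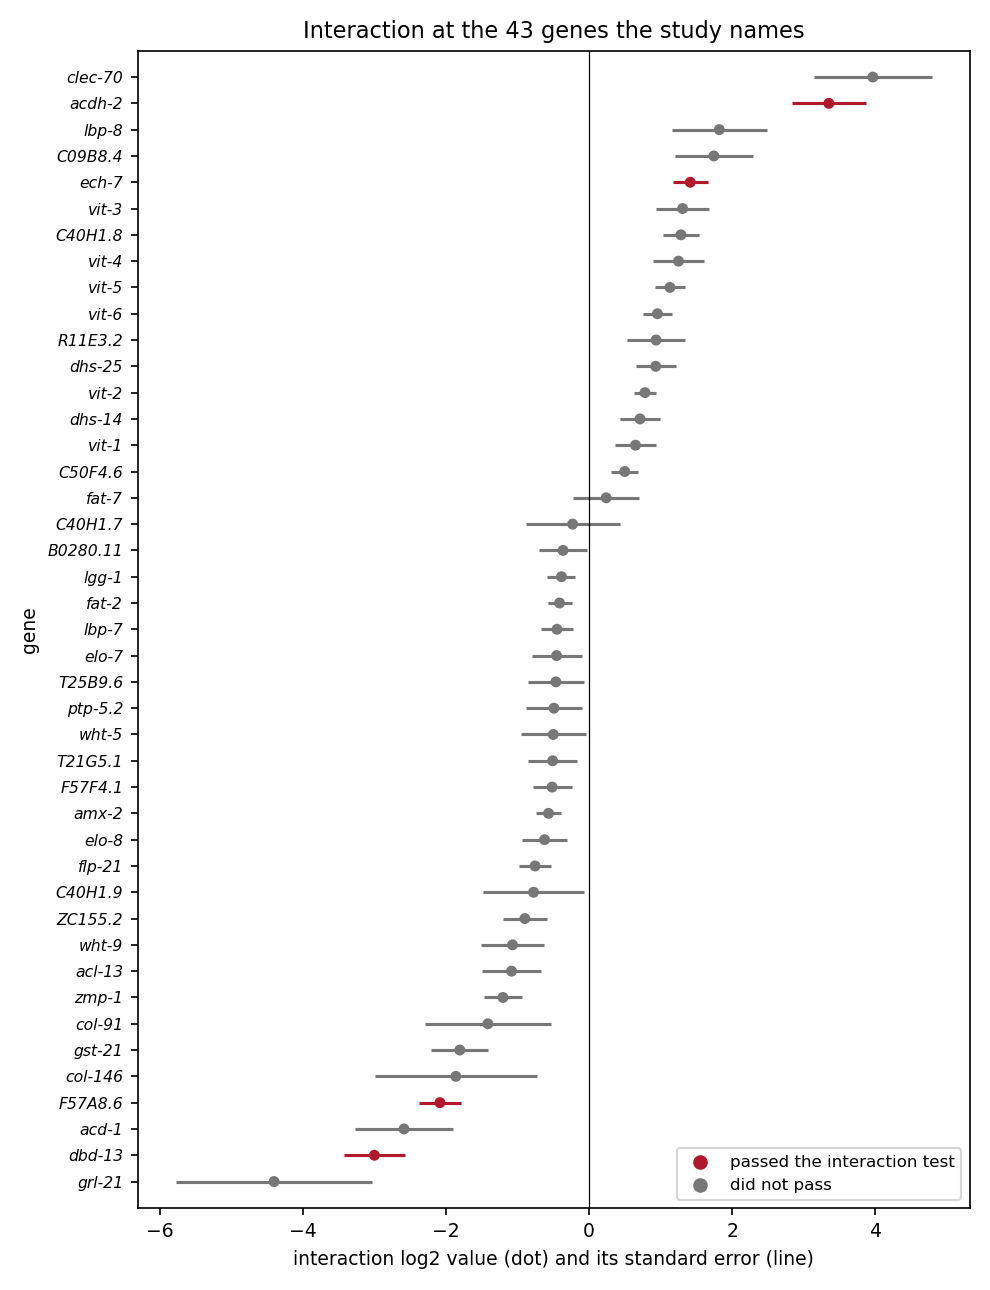
Interaction on the log2 scale (dots, horizontal axis) with its standard error (lines) for the 43 genes that the study names (vertical axis, sorted). acdh-2, ech-7, F57A8.6 and dbd-13 (red) passed the test, and grl-21 and clec-70 lie farthest out with wide errors.

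C40H1.8, the lipase gene that the study followed up, had 241, 309.9 and 266 normalized counts in the double mutant, 139.9, 159 and 152 in eat-2, 30.7, 26.5 and 24.1 in nhr-62 and 30.6, 45.3 and 33.8 in N2. Both genotypes with eat-2(ad465) lay far above the others, and the double mutant lay above eat-2, a difference that was called. By qPCR the study reports the opposite direction, with the rise of C40H1.8 in eat-2 partly lost in eat-2;nhr-62. The reason for the difference between the measurements was not tested. Its log2 fold-change was 0.86 in nhr-62;eat-2 against eat-2 (adjusted p = 0.0149) and -0.43 in nhr-62 against N2 (adjusted p = 1), and the interaction of 1.29 (standard error 0.26, adjusted p = 0.077, edgeR) did not pass. The desaturase genes fat-7 and fat-2 had interactions of 0.24 (adjusted p = 0.82) and -0.41 (adjusted p = 0.298), and lgg-1, a core gene of autophagosome formation, had -0.38 (adjusted p = 0.394). Neither direction was shown for these 3 by the interaction test. In nhr-62;eat-2 against eat-2 the log2 fold-change was -0.40 for fat-2 (adjusted p = 0.0498, edgeR) and -0.33 for lgg-1 (adjusted p = 0.12), and neither was called. For fat-2 and lgg-1 the study's qPCR had the same direction, for fat-2 without significance. Of 27 autophagy genes tested none was called, 1 had an unadjusted p under 0.05, and the median interaction was 0.03, or -0.094 when scaled by total counts.

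The vitellogenins, yolk proteins made in the intestine and taken up by oocytes, had positive interactions that did not pass the test. All 6 had an unadjusted p under 0.05, beside 14.3% of all genes tested, and their median was 1.04, beside -0.03. vit-5 had 43490.1, 62296 and 61888 normalized counts in the double mutant, 21473, 26294 and 30007 in eat-2, 179765, 180657 and 175766 in nhr-62 and 165603, 195327 and 184025 in N2. eat-2 was the lowest genotype, the double mutant lay between it and the others, and nhr-62 and N2 overlapped (interaction 1.13, standard error 0.21, adjusted p = 0.0551, edgeR). For vit-6, the most abundant, the double mutant had 634929, 809047 and 857784, eat-2 362894, 385182 and 451504, nhr-62 1112068, 1026314 and 971638 and N2 1011016, 1099402 and 1034999 (interaction 0.96, adjusted p = 0.0848). The values of the others were 1.31 for vit-3, 1.25 for vit-4, 0.78 for vit-2 and 0.65 for vit-1, with adjusted p between 0.0804 and 0.336. Near-identical vit genes can share reads, so the 6 values are not separate measurements.

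Lists of tissues and processes were described by their counts and medians beside those of all genes tested, in which 46.2% of the interactions were positive and the middle 50% of values lay between -0.33 and 0.16, with 14.3% at an unadjusted p under 0.05. All 31 genes of oogenesis and eggshell formation had positive interactions (17 with an unadjusted p under 0.05, median 0.28), as did 28 of 33 genes of germ line proliferation and meiosis (13, median 0.18), 30 of 31 proteasome genes (10, median 0.17) and 15 of 19 intestinal markers (6, median 0.39). None of these was called. The oogenesis genes took 2.11% to 2.19% of the counts in the double mutant, 1.71% to 1.83% in eat-2, 2.15% to 2.18% in nhr-62 and 1.92% to 2.18% in N2, with eat-2 under all the others. Negative interactions were seen in 56 of 64 spermatogenesis genes (1 with an unadjusted p under 0.05, median -0.40), in 28 of 30 FMRFamide-like peptide genes, which encode neuropeptides (9, median -0.27), and in 12 of 13 pharyngeal markers (6, median -0.41), of which phat-4 was called. Genes of a list are measured in the same libraries, so these counts are descriptions. Total counts in place of TMM lowered the median interaction of all genes to -0.16. Each of these lists kept the sign of its median under that scaling, at 0.16 for oogenesis, 0.047 for germ line proliferation, 0.042 for the proteasome and 0.26 for the intestine, but 20 of the 33 germ line genes and 22 of the 31 proteasome genes were then positive.

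**Figure D5:**
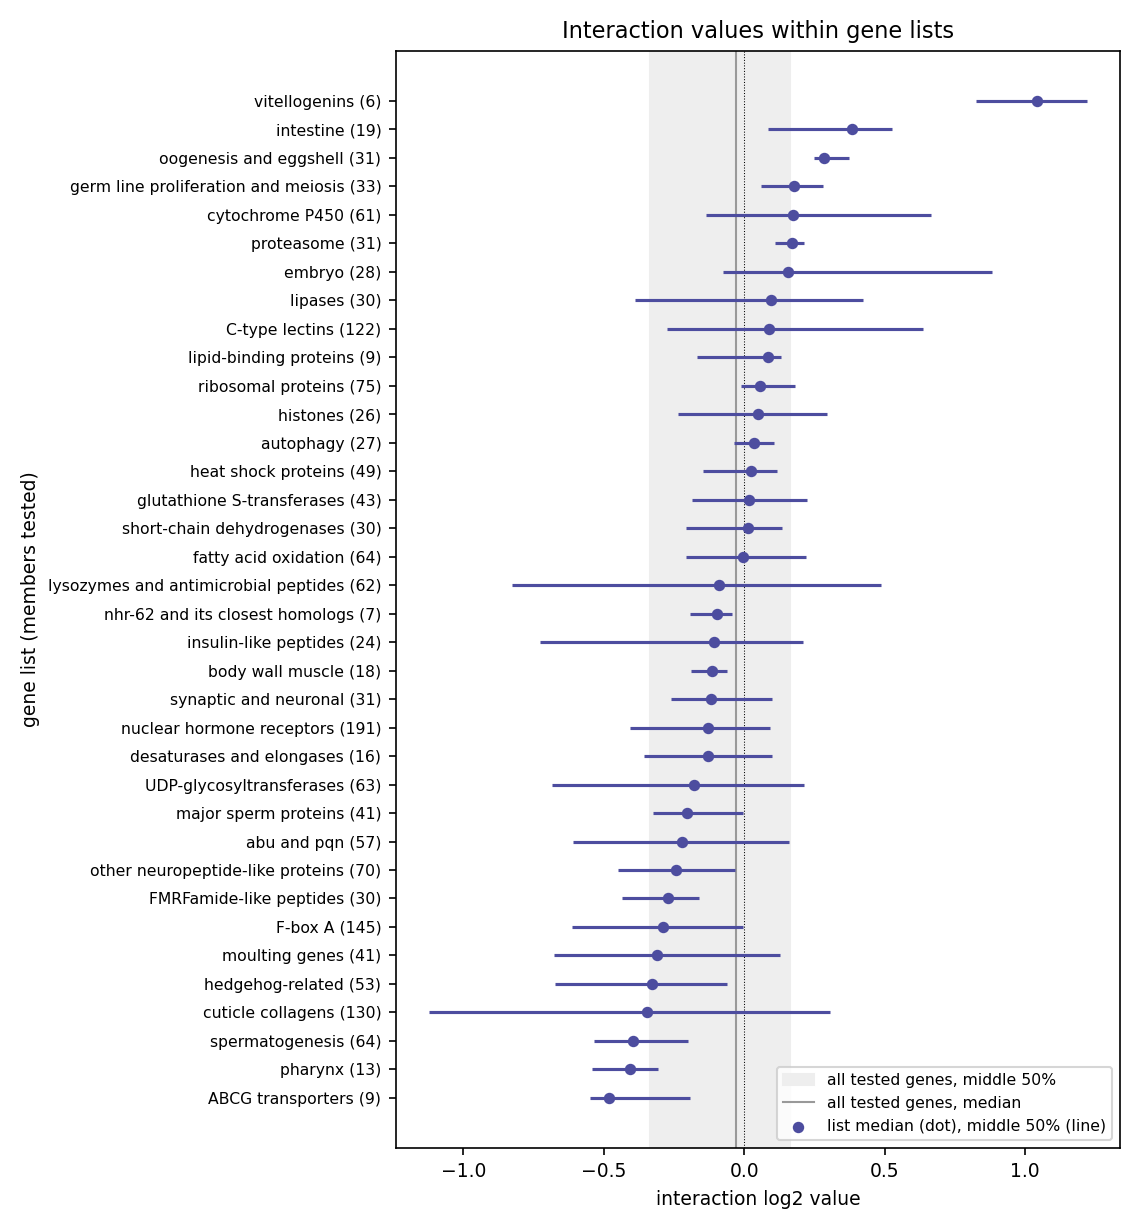
Median interaction on the log2 scale (dots, horizontal axis) and the middle 50% of values (lines) in each gene list (vertical axis, with the number of genes tested), beside the middle 50% (grey band) and the median (grey line) of all genes tested. The vitellogenins lie highest at 1.04, and the spermatogenesis list at -0.40 and the pharynx list at -0.41 lie near the lower end.

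Families with wide spread held single called genes. Of 130 cuticle collagen genes only col-113 was called (0.769%, beside 0.261% of all genes tested), 18 had an unadjusted p under 0.05 (13.8%, beside 14.3% of all genes tested), and their median was -0.35. Of 63 UDP-glycosyltransferase genes only ugt-33 was called (1.59%), with 18 at an unadjusted p under 0.05 (28.6%) and a median of -0.18. Among 191 nuclear hormone receptor genes none was called, 26 had an unadjusted p under 0.05 (13.6%, near the share of all genes), and the median was -0.13. nhr-12 came nearest, at 336, 379 and 437 normalized counts in the double mutant, 730.2, 641 and 708 in eat-2, 362, 421 and 444 in nhr-62 and 342, 457 and 385 in N2 (interaction -0.90, adjusted p = 0.0848, edgeR), with eat-2 above all other libraries. Among nhr-62 and its closest homologs, 7 genes, none was called, none had an unadjusted p under 0.05, and the median was -0.10.

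The 40 genes lay on every chromosome but III. They were 12 of 2549 genes tested on chromosome IV (0.471%), 12 of 3011 on V (0.399%), 7 of 2653 on II (0.264%), 5 of 2477 on I (0.202%), 3 of 2091 on X (0.143%) and 0 of 2351 on III, and T20C7.2 matched no gene of the annotation. Within 10 protein-coding genes of each other lay 2 pairs, fbxa-125 and B0511.11, which are neighbours on I, and F57A8.6 and R04B5.6, 5 genes apart on V, and in all 4 of these eat-2 stood highest. Pairs were counted between protein-coding genes only, which leaves out the pseudogenes fbxa-191 and fbxa-193. Other gene models overlap 8 of the 40 genes, and 31.3% of all genes tested. The mean normalized count of the 40 genes had a median of 384 and ran from 11.7 to 5680.3, beside a median of 299 over all genes tested.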

How the data were processed

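The authors deposited raw counts per gene, in whole numbers, for 12 libraries, 3 per genotype, from 100 bp single-end reads. According to the study the authors clipped adapters, aligned reads to the WBcel215 genome with TopHat 1.3, keeping 1 alignment per read, and counted them with HTSeq. No source used here gives its strand setting. No column was left unused, and 1 blank line was left out. Names came from a later annotation and matched 98.5% of genes with a count. Coordinates are not printed, since the builds differ.

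Counts were fitted in edgeR 4.0.16 (R 4.3.3, filterByExpr, TMM) with 1 mean per genotype. The interaction and its pairwise parts are contrasts of that quasi-likelihood fit, adjusted by Benjamini-Hochberg over all 15344 genes tested. Standard errors are the size of a log2 fold-change over the square root of F. Calls needed an adjusted p under 0.05, a change over 1.5-fold and a mean normalized count over 10, the study's thresholds. Library sums were 18260311 to 44753083, and the 12 pairs of replicates differed by 10.2 to 60.4 times the variance that sampling of reads gives, so no library was a copy of another and the spread between libraries sets the precision. The p-values measure the spread between what the study calls biological replicates.

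Genes were named by a rule that takes nhr-62 and eat-2, the 15 positive and 15 negative calls with the smallest p whose mean was over 20 in some genotype, the 43 genes the study names, and, from each list, the 3 genes lowest in p, of which a choice is printed. The other 10 called genes are named to account for all 40. The members, lists and rule were chosen with earlier results of these data known. The groups by the genotype standing apart were defined after the values were seen. The alternatives tried were other scalings, DESeq2 1.42.0, a test against a 1.5-fold change, no filter, the adjusted p alone, the replicate block, the sperm score as a covariate, replicates 2 and 3 only, and leaving out each library. The test was tested on simulated data.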

Additional observations from a re-analysis of the deposited data

Results flagged for a closer look

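In 40 genes the effect of nhr-62(tm1818) differed between eat-2 and wild-type animals by the test of the difference itself (edgeR quasi-likelihood test, Benjamini-Hochberg adjusted p between 0.0012 and 0.0483). The difference is given on the log2 scale, and a negative value means that the level was lower without nhr-62 in eat-2 animals, relative to wild-type animals. Where eat-2 stood farthest apart as the highest genotype, the differences were ugt-33 -4.02, dbd-13 -3.0, R04B5.6 -2.75, col-113 -2.10, F57A8.6 -2.08, pals-32 -1.94, fbxa-125 -1.85, C36C5.12 -1.46, dbd-3 -1.43, T20C7.2 -1.39, unc-82 -1.25, B0034.1 -1.24, phat-4 -1.15, B0511.11 -1.14, Y57G11A.4 -0.83, Y73F4A.2 -0.73 and ttr-18 -0.72. Where eat-2 stood lowest they were acdh-2 3.35, ech-7 1.42, osgn-1 0.99, spat-3 0.96, mig-14 0.86, C53D5.1 0.76, acly-1 0.65 and smo-1 0.61. Where nhr-62;eat-2 stood highest they were T25B2.1 5.75, asp-8 1.94, tiar-2 1.43 and F42A9.6 1.39, and where it stood lowest dyf-3 -1.31, Y55F3AM.11 -0.83 and Y69E1A.5 -0.82. The N2 libraries stood apart in fbxa-192 2.64, C55C3.7 2.55, asp-12 2.23 and nspg-10 1.39 and in acp-2 -1.66, and the nhr-62 libraries in fbxa-193 2.80, cyp-29A3 2.77 and fbxa-191 1.77. The value of T25B2.1 rests on 0 to 3 raw counts in every library outside the double mutant and depends on the prior count of the fit. Groups of 3 libraries were not tested for an outlying library.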

How the results depend on the processing

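The interaction count of 40 became 10 when edgeR tested against a 1.5-fold change, all of them among the 40, and 198 with the Wald test of DESeq2, of which 38 were among the 40. Other scalings, no filter on low counts, the replicate block and the sperm score as a covariate gave 39 to 57 genes. With total counts in place of TMM the 48 called genes split into 14 positive and 34 negative, against 19 and 21. For nhr-62;eat-2 against eat-2 the count of 835 became 1474 with total counts, 28 with the test against a 1.5-fold change, 1464 with the replicate block, 30 with the sperm score as a covariate and 1624 on the adjusted p alone. The sperm score did not overlap between nhr-62;eat-2 and eat-2, so that fit cannot fully separate the score from the genotype. For nhr-62 against N2 the count of 16 became 7 with the test against a 1.5-fold change and 10 with replicates 2 and 3 only, a fit that called 54 interactions, 24 of them among the 40. Leaving out each library in turn gave 13 to 45 interactions, 110 to 1499 genes for nhr-62;eat-2 against eat-2 and 9 to 18 for nhr-62 against N2, and the cause was not tested. All 40 genes kept their direction under every alternative run, all of which reuse the libraries by which the genes were chosen. Among the other named genes the sign changed for eat-2, at -0.073 with total counts, -0.15 with the sperm score as a covariate and -0.63 to 0.82 with a library left out, and, with a library left out, for fat-7 (-0.077 to 0.50), C40H1.7 (-0.72 to 0.087) and nhr-34 (-0.18 to 0.026). The replicate numbers were not taken to pair the libraries, since neither the labels nor the study say what a number marks and the deviations of same-numbered libraries from their genotype means correlated at -0.22 to 0.29 and were over 0.1 in 7 of 18 pairs, while 8 of 12 libraries correlated best with their own number, a hint of pairing from the data and not from the design. The replicate block called 55 interactions, 20 positive and 35 negative, and 35 of the 40 genes kept their call. With 3 libraries per genotype the median standard error of an interaction was 0.23 on the log2 scale, and it ran from 0.09 for smo-1 to 1.01 for T25B2.1 among the 40 genes. The effect of depth on it was not tested.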
